A study of Caenorhabditis elegans with 2 samples.

Results

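The sites described here are interstitial stretches of the Caenorhabditis elegans genome that are rich in the telomere repeat unit TTAGGC. They were found from the genome sequence alone, as places more than 10 kb from a chromosome end where 3 or more copies of the unit, on either strand, fall within 50 bp of a central base on either side. Such places were joined when they lay within 200 bp of each other. This gave 1468 sites on the 6 nuclear chromosomes, which hold 13488 of all 38931 nuclear copies of the unit (34.6%) and cover 221625 bp, or 0.221% of the nuclear genome. For each site the strongest summit within 50 bp was read from the ChIP-seq peak lists of the transcription factor HAM-2.

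The ChIP-seq data come from 1 group with 2 biological replicates, numbered 6 and 7, each with 1 technical replicate. The embryos were of strain OP639, which carries the integrated transgene wgIs639 in an unc-119(tm4063) mutant background. The transgene holds ham-2::TY1::EGFP::3xFLAG, a fusion of HAM-2 to GFP and FLAG, beside a functional unc-119(+) copy. They were mixed-stage embryos of both sexes, obtained by bleaching and labelled as 3 hour in age, and the chromatin was sheared by sonication to 200 to 800 bp. The labels disagree on the antibody: the description names one against GFP, and the antibody field gives ham-2. With an antibody against GFP the signal is that of the tagged transgene product, and otherwise the endogenous protein may add to it. The model is further limited in that 1 transgenic line was used and that whole embryos mix all cell types. Both libraries share strain, stage and tag, so no condition was compared, and the control library was not analysed here.

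Telomeres of C. elegans end in tandem arrays of TTAGGC, which are bound by dedicated proteins such as the single-strand binders POT-1 and POT-2 and the double-strand binders TEBP-1 and TEBP-2. Copies of the same unit also lie scattered inside the chromosomes, where they are known as interstitial telomeric sequences and are mostly degenerate arrays. C. elegans chromosomes have gene-dense centres with little recombination and arms that are richer in repeats and recombine more. HAM-2 is a zinc-finger protein first known from the migration of the HSN motor neurons.

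The unit was checked against the chromosome ends. The first and last 500 bp of the 6 chromosomes held between 22 and 72 copies each. At the 12 places with 3 or more copies that were left out for lying 10 kb or less from an end, none had a reproducible summit and 2 had a summit in the pooled list. The longest runs of adjoining copies at these places were of 21 to 72 copies. How reads from such arrays were placed is not stated, so absence there cannot be told apart from unplaced reads.

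The sequences that follow show what the sites look like. They are the plus strand of WBcel235 (ce11) as given by RefSeq, written 5′ to 3′, with whole copies of the unit in capitals (TTAGGC on the plus strand, GCCTAA where the unit is on the minus strand) and all other bases in lower case. The first 4 carried reproducible HAM-2 summits and were chosen to show the range of arrangements. In order, they are the strongest site, the second strongest, a site in which the copies recur in a longer unit, and a strong site with only 3 copies.
chrII:4155203-4155477: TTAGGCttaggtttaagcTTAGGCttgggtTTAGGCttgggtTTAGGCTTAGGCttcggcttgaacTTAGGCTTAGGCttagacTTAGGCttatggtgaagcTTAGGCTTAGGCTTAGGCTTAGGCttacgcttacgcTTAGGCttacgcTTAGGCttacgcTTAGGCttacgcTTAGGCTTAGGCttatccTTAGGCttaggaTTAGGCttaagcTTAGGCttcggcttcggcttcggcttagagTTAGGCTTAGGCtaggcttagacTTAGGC
chrII:3912515-3912621: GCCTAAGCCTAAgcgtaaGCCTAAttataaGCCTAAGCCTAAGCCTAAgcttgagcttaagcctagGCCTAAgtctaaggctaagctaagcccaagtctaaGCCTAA
chrV:1848652-1848942: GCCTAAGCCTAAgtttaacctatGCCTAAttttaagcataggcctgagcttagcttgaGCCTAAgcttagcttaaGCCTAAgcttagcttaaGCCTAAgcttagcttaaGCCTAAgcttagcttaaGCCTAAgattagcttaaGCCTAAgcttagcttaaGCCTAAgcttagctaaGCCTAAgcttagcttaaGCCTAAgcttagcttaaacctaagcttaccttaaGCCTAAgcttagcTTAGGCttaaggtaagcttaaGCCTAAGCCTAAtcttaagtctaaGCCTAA
chrV:19430644-19430715: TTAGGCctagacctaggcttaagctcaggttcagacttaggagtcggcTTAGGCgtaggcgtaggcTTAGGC
In the first of these, 23 copies stand in 275 bp with up to 4 in a row, and many of the other bases are near-copies such as ttacgc and ttcggc. In the sequence from 1848652, copies of GCCTAA alternate with gcttagcttaa, so that few copies touch. The 3 copies from 19430644 are set among near-copies such as gtaggc, and the summit lay at base 68 of 72, inside the last copy.

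The next 3 show a site on chromosome X with a reproducible summit, a site with 15 copies and no summit in any of the 4 lists, and a site with 9 copies in a row and no reproducible summit.
chrX:1217434-1217539: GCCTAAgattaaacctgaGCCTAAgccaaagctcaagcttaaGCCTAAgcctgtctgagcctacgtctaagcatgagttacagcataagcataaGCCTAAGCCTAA
chrIV:1972450-1972672: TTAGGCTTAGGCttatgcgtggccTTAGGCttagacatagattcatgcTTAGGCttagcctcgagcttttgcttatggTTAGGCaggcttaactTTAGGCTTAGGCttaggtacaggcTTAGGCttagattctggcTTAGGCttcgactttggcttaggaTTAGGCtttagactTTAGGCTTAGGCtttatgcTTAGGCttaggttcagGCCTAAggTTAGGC
chrV:2712587-2712748: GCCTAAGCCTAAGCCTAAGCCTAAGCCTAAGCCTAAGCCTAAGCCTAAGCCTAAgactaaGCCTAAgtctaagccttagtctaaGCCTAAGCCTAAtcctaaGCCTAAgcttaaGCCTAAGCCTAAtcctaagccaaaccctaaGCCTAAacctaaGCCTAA
By eye, the site on chromosome IV looks like those that carried summits. All of its 50-base words occur once in the nuclear genome. The array on chromosome V, in an intron of the chemoreceptor gene srt-28, has the longest run of the 7, and its strongest summits had a signal of 60.3 in replicate 6, 21.0 in replicate 7 and 90.1 in the pooled list.

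Most of the sites were short and imperfect. The median length was 102 bp (range 18 to 1204), the median number of copies 7 (range 3 to 79) and the median longest run of adjoining copies 2 (range 1 to 15). In 1242 sites (84.6%) all copies were on 1 strand. After a copy, the next 6 bases were another copy in 30.8% of 13488 cases and a copy with 1 different base in 33.6%.

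HAM-2 peaks were found at these sites more often than across the genome. A peak is called reproducible here where it belongs to the submitters' set of 1945 peaks that passed their threshold of irreproducible discovery rate. A reproducible summit lay within 50 bp of 116 of the 1468 sites (7.90%, 95% exact Clopper-Pearson interval 6.57 to 9.40%), against 0.392% of all 202 bp windows of the nuclear genome, a ratio of 20.2. A site of median length with its margin of 50 bp on each side spans those 202 bp. Of windows that hold no such site, 0.371% had a reproducible summit. Counting any summit of the pooled list, which includes background, 767 sites (52.2%) had one, against 6.04% of windows. The intervals cover counting error only, since sites share libraries and sequence. The ratio of 20.2 holds for windows of 202 bp. Sites differ in length, and those with a reproducible summit had a median of 302 bp. Longer windows had a reproducible summit more often, with 0.274% of windows of 141 bp and 1.30% of those of 684 bp.

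The 2 libraries did not contribute equally. Among the 1945 strongest peaks of each replicate, replicate 6 had a summit at 143 sites (9.74%), against 0.390% of windows. Replicate 7 had one at 55 sites (3.75%), against 0.391%. Both shares are above that of windows. The reproducible set is made of the 1945 strongest peaks of the pooled list, so a site is in it by its pooled signal. Split by these lists of strongest peaks, 43 of the 116 sites were in both, 58 only in the one of replicate 6, 8 only in the other and 7 in none. In the full replicate lists, which include background, all 116 had a summit in replicate 6 and 114 in replicate 7. The 2 without one in replicate 7 lie near C09F5.1 on chromosome III and in an exon of C38C3.4 on chromosome V, with replicate 6 signals of 89.3 and 82.5.

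As peaks, the sites were in the weaker part of the set. The 117 reproducible peaks at sites (6.02% of 1945; 1 site held 2 summits) had a median signal of 124 with a range of 105 to 258. The 1828 peaks elsewhere had a median of 155 and reached 1164. Signal is the value that the authors' caller gave each peak, its scale is not stated, and it serves to rank peaks within 1 list. Ranked in this way, 2 of the 389 strongest peaks were at a site (0.514%), then 14, 23 and 37, and finally 41 of the 389 weakest (10.5%). The highest rank of a peak at a site was 332. Not every reproducible peak had a counterpart in each replicate list, and the ranks cover those that did. These counts are by peak, while the counts by site above take any summit within 50 bp of the site. In replicate 6 the median rank was 1274 for 111 peaks at sites and 956 for 1806 elsewhere. In replicate 7 it was 2097 for 112 peaks and 934 for 1746, so among these the peaks at sites fell further behind the others there.

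**Figure D1:**
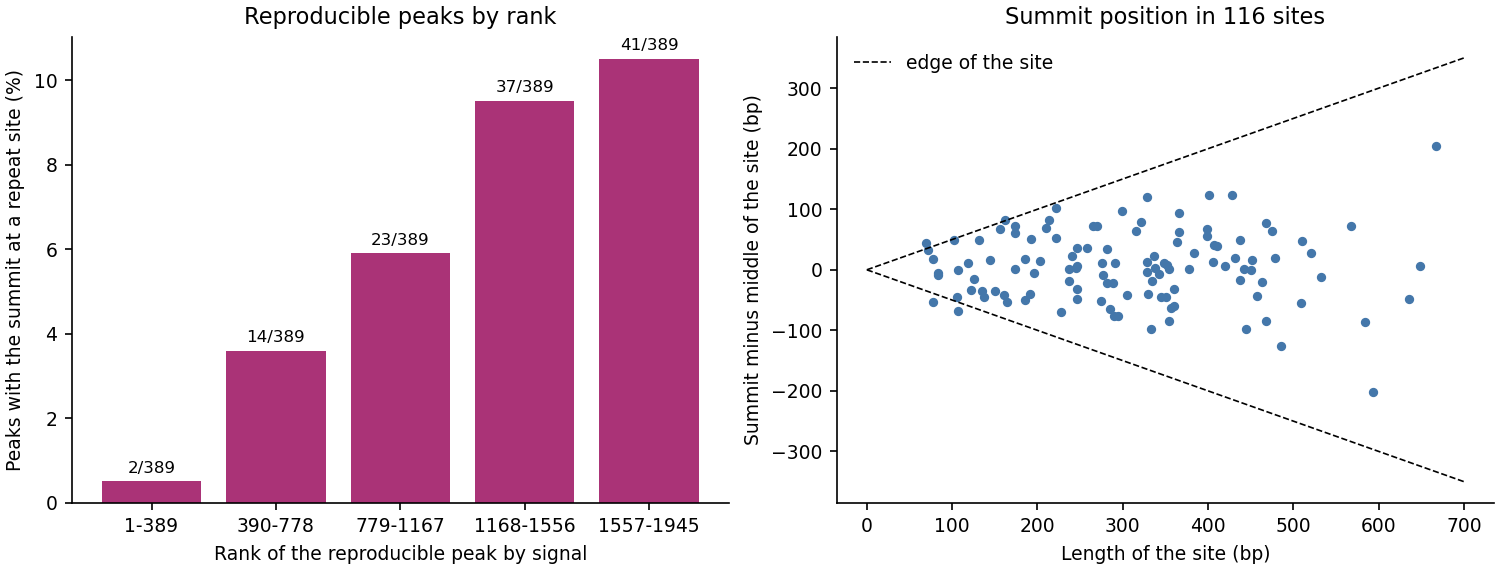
Left, share of reproducible peaks whose summit lay at a repeat site (%), by rank of the peak's signal in groups of 389, with the counts above the bars; the share was 0.514% among the strongest and 10.5% among the weakest. Right, summit position relative to the middle of the site (bp) against the length of the site (bp) for the 116 sites with a reproducible summit, 1 point per site; dashed lines mark the edges of the site, and 112 summits lie between them.

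Most of the summits counted for a site lay inside it. In 112 of the 116 sites (96.6%) the summit was inside the site and in 81 (69.8%) in its middle 50%, as the plot of summit position against site length shows. The median distance was 41.5 bp to the middle of the site and 3 bp to the nearest whole copy, and no summit was over 28 bp from a copy. In 40 sites (34.5%) the summit fell inside a copy. A site was counted only where a summit lay within 50 bp, so nearness to the site is partly set by this rule. With the margin widened to 200 bp, 118 sites had a summit. Since all copies and near-copies lie close together, a short distance to a copy is partly given, and it does not tell which copy was bound. The shares for summits placed evenly over the sites were not worked out.

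The number of copies went with the chance of a summit. Of the 297 sites with exactly 3 copies, 1 had a reproducible summit (0.337%), against 0.274% of windows of the same length. The share was 1.21% for 4 to 5 copies, 4.17% for 6 to 9 and 5.76% for 10 to 14. It reached 22.2% (28 of 126, interval 15.3 to 30.5%) for 15 to 19 copies and 42.2% (43 of 102, interval 32.4 to 52.3%) for 20 to 29, where 0.882% of equally long windows had one. Sites with 30 to 79 copies did not exceed this, with 12 of 33 (36.4%, interval 20.4 to 54.9%). From the strongest peaks of replicate 7 alone, the counts at 15 to 19, 20 to 29 and 30 to 79 copies were 10, 17 and 8, and from those of replicate 6 alone 31, 51 and 14. Just outside the site rule, 3 of 1555 places with 2 copies in such a stretch had a reproducible summit (0.193%).

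**Figure D2:**
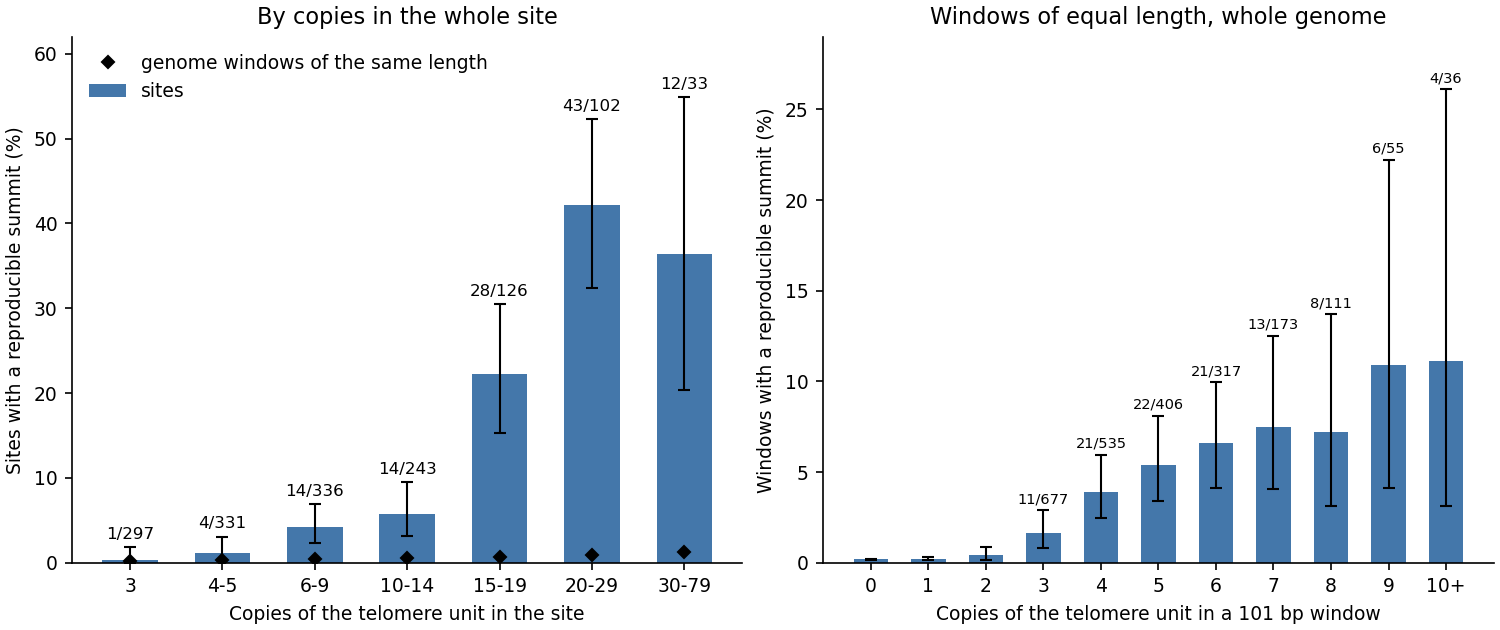
Left, share of sites with a reproducible summit (%) by number of copies in the site, with 95% exact Clopper-Pearson intervals, counts above the bars and the share of genome windows of the same length as diamonds; it was 0.337% at 3 copies and 42.2% at 20 to 29. Right, share of all genome windows of 1 fixed width, that of the site rule, that hold a reproducible summit (%) by number of copies in the window, with the same intervals; it was 0.184% with no copy and 11.1% with 10 or more.

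Sites with more copies are also longer, and a longer site offers more room for a summit. Genome windows of 1 fixed width, that of the site rule, showed the same order. A reproducible summit lay in 0.184% of 965427 windows without a copy, 0.234% of those with 1 copy and 0.431% with 2, against 0.196% of all windows. The share was 1.62% with 3 copies, 3.93% with 4, 5.42% with 5 and 6.62% with 6. From 7 copies on it was between 7.21% and 11.1%, with intervals that overlap. The replicates differed here. From the strongest peaks of replicate 6 alone, the share was 8.67% with 7 copies, 11.7% with 8, 18.2% with 9 and 19.4% with 10 or more (36 windows). From those of replicate 7 alone, it was 3.47%, 0.901%, 9.09% and 0%. Among sites of 60 to 119 bp, 11 of 418 with 3 to 9 copies had a summit (2.63%) and 0 of 15 with 10 to 19 (exact upper limit 21.8%). At 120 to 239 bp it was 8 of 164 (4.88%, interval 2.13 to 9.39%) and 17 of 219 (7.76%, interval 4.59 to 12.1%). Among sites of 240 to 357 bp, 22 of 107 with 10 to 19 copies had a summit (20.6%) and 17 of 44 with 20 or more (38.6%), with overlapping intervals (13.4 to 29.5% and 24.4 to 54.5%). Among sites of 360 bp or more it was 3 of 28 (10.7%, interval 2.27 to 28.2%) and 36 of 87 (41.4%, interval 30.9 to 52.4%), and these intervals do not overlap.

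Signal was also higher at sites with more copies, but hardly so within the reproducible set. Over the 767 sites with a pooled summit, Spearman's rho between copies and pooled signal was 0.52 and Pearson's r of the log2 values 0.50. For the length of the site and pooled signal, rho was 0.47 over the same sites. For the number of copies in the densest stretch of the site rule's width, it was 0.41. The signal is that of the strongest summit, and a longer site offers more room for summits. These values therefore do not separate the number of copies from length. Between copies and signal, rho was 0.53 over 798 sites in replicate 6 and 0.31 over 507 in replicate 7. Within the 116 sites with a reproducible summit rho was 0.11 and r of the log2 values -0.02. Those sites are in the set by their pooled signal, which narrows its range. Between the replicates, the signals of the 422 sites with a summit in both had a rho of 0.50. These are descriptions over sites that share libraries and base composition.

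**Figure D3:**
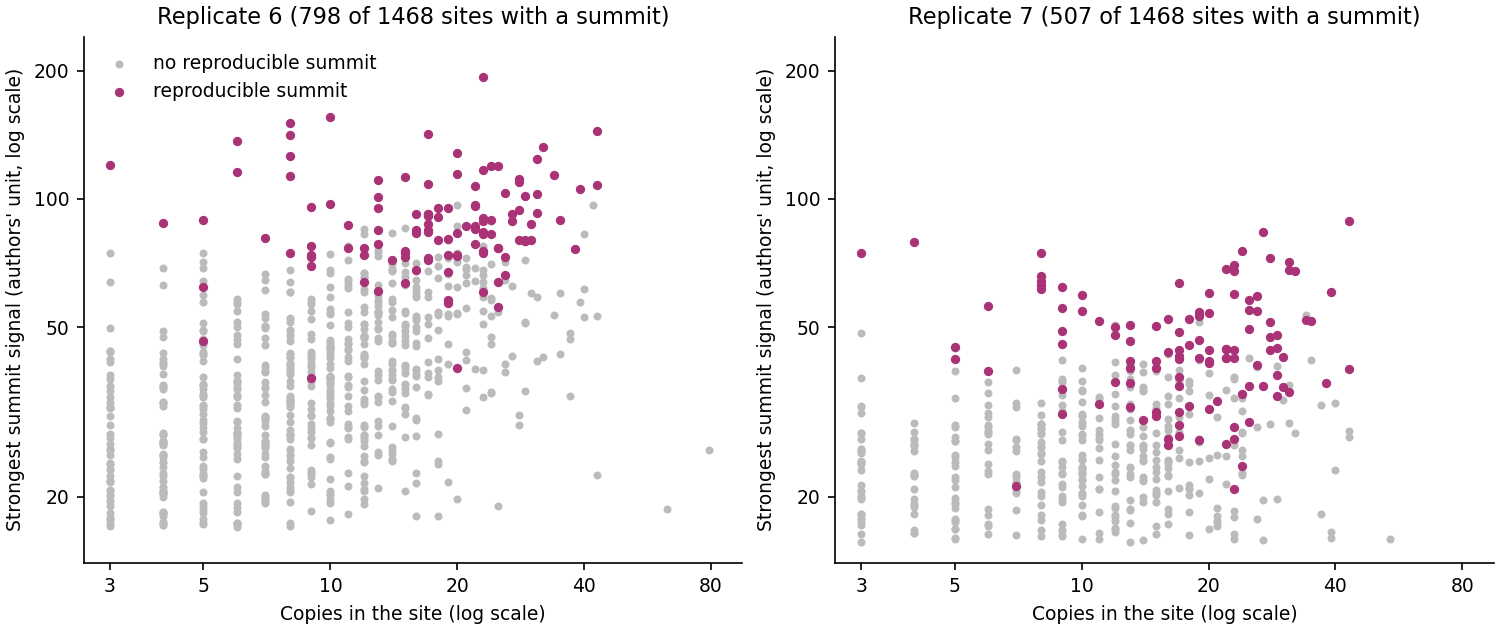
Strongest summit signal within 50 bp of each site (authors' unit, log scale) against copies in the site (log scale) in replicate 6 (left, 798 sites with a summit) and replicate 7 (right, 507), 1 point per site; purple sites have a reproducible summit. Signals were higher at sites with more copies in both, with rho 0.53 and 0.31, and the sites with 54 to 79 copies lie low.

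Up to runs of 4 copies, a longer unbroken run was also more often met by a summit. The share was 0.836% where no 2 copies adjoined (3 sites), 6.55% for runs of 2, 10.3% for runs of 3 and 17.1% for runs of 4. It was no higher at runs of 5 (15.7%) and about the same at 6 (17.6%, 3 of 17 sites). It was 29.2% for runs of 7 or more, but on 24 sites (interval 12.6 to 51.1%). Sites with longer runs had more copies too, with a median of 4 where none adjoined and 18 for runs of 7 or more. The 2 strands did not differ in this respect, with 52 of 653 sites on the plus strand (7.96%) and 44 of 589 on the minus strand (7.47%).

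Repeated sequence limits where reads can be placed. Of 1287 sites whose 50-base words all occur once in the nuclear genome, 91 had a reproducible summit (7.07%). Of 133 sites in which 50% to under 100% of the words occur once, 25 had one (18.8%), and those sites had a median of 16 copies against 6. None of the 48 sites with fewer unique words had one (exact upper limit 7.40%), and 7 of them had a pooled summit. The sources used here do not say how reads from repeated sequence were placed, so absence at these 48 sites cannot be told apart from unplaced reads.

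The 5 sites with the most copies and no reproducible summit were all in introns of arm genes. The longest array by copies, with 79, is in catp-1, which encodes a P-type ATPase subunit. It had a replicate 6 signal of 25.7, no summit in replicate 7, and only 32.9% of its words were unique. The 63 copies in zfh-2, a zinc-finger homeobox gene, and the 54 in prhg-1 had pooled signals of 35.6 and 31.2, with 29.7% and 28.4% unique words. In contrast, the 43 copies in pqn-80, a gene for a prion-like Q/N-rich protein, had 98.3% unique words and signals of 53.0 in replicate 6, 28.5 in replicate 7 and 73.8 pooled. The 43 copies in moa-1 (88.9% unique words) had 22.5, 27.7 and 41.1. So a high copy number came without a reproducible summit at sites with mostly unique words as well.

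Among the 135 sites with 20 or more copies, the 55 with and the 80 without a reproducible summit had similar medians in several measures. The median number of copies was 25 and 24, the median length 406 and 416 bp, the median longest run 4 and 4, and the median GC content 46.7% and 46.6%. The share of unique words differed, with a lower quartile of 99.0% at sites with a summit and 83.6% at the others, and lowest values of 53.8% and 17%. In the letters of all 1468 sites, not matched for the number of copies, 34.3% of copies in sites with a summit were followed at once by another copy and 30.1% in the other sites. The near-copy TTAAGC followed 5.90% of copies in sites with a summit and 3.09% in the others. Among near-copies with 1 different base, the change was at the fourth base of the unit in 24.3% and 17.2%. Copies within a site are not independent, so these shares carry no interval.

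The sites were unevenly spread over the chromosomes. There were 21.9 sites per Mb on chromosome II, 18.9 on III, 18.2 on I, 16.2 on V, 11.4 on IV and only 3.27 on X. Copies of the unit as such were less uneven, from 477 per Mb on I to 254 on X. Chromosome IV was lopsided, with 153 sites in its left and 26 in its right arm, and so was X with 41 and 16. On the others the left and right arms held 124 and 122 sites (I), 149 and 126 (II), 107 and 105 (III) and 174 and 153 (V).

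The share with a reproducible summit was highest on I, II, III and V. It was 9.88% on II (33 of 334), 8.81% on III (23 of 261), 8.53% on V (29 of 340) and 8.0% on I (22 of 275), with windows at 0.413%, 0.471%, 0.231% and 0.433%. Chromosome IV had 7 of 200 (3.50%, interval 1.42 to 7.08%; windows 0.297%) and X 2 of 58 (3.45%, interval 0.420 to 11.9%; windows 0.560%). The share on IV lies below the intervals of I, II, III and V (lower bounds 5.08% to 6.90%), and theirs lie above its interval. The interval of X spans the shares of all the others. No test of these differences was made. Among the strongest peaks of replicate 7, the counts were 14 on II, 13 on V, 12 on III, 11 on I, 5 on IV and 0 on X. The median number of copies was 6 on IV and 5 on X, against 6 on V, 7 on II and III and 8 on I. Sites of 20 or more copies numbered 10 on IV and 1 on X, against 25 on II, 28 on III, 32 on I and 39 on V. Among sites with 20 or more copies, the share was 64.0% on II (16 of 25), 41.0% on V, 35.7% on III, 31.2% on I, and 3 of 10 sites on IV had one.

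**Figure D4:**
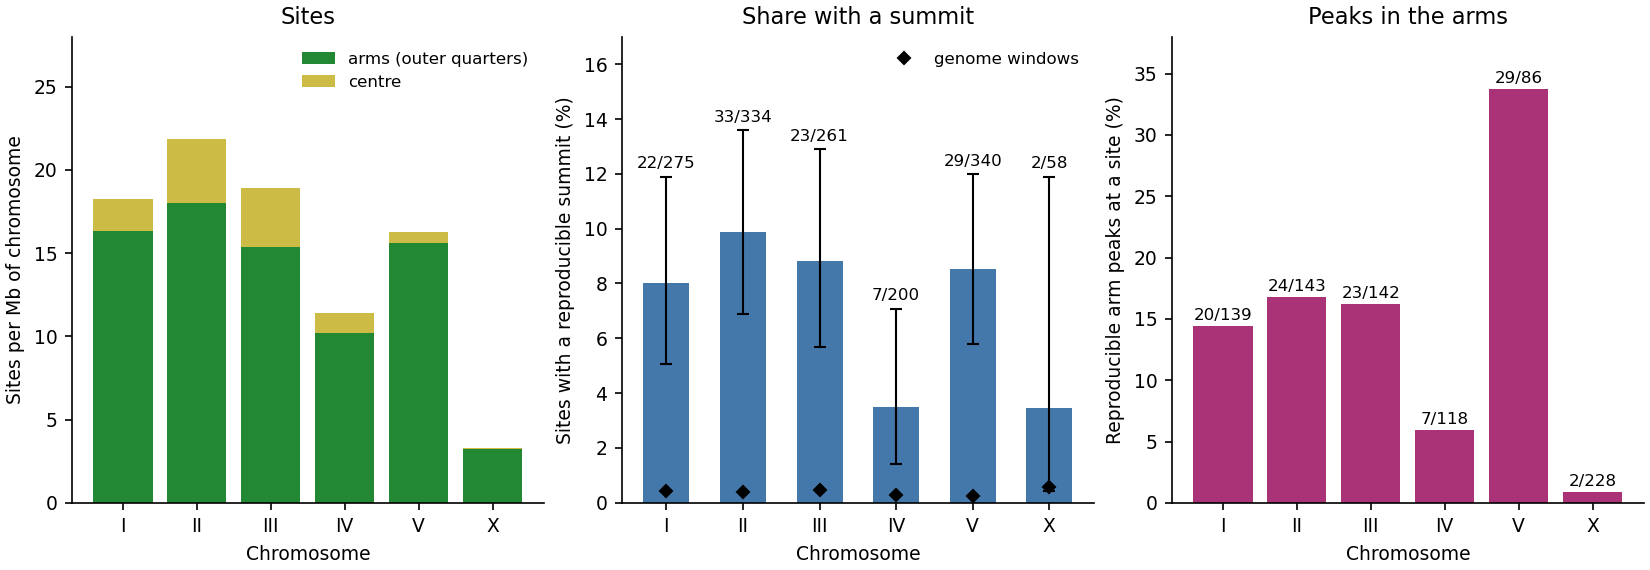
Left, sites per Mb of chromosome, split into arms (the outer 25% at each end) and centre; chromosome II had 21.9 and X 3.27. Middle, share of sites with a reproducible summit (%) with 95% exact Clopper-Pearson intervals and counts, and genome windows as diamonds; it was 3.45% to 9.88%. Right, share of reproducible arm peaks whose summit lay at a site (%), with counts; it was 33.7% on V and 0.877% on X.

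Chromosome X held 491 reproducible peaks, the most of any chromosome, and 2 of them were at sites. One is the site printed above from 1217434, in an intron of C46H3.2, with signals of 46.5 in replicate 6 and 44.8 in replicate 7. The other, chrX:1575984-1576334 with 17 copies, lies in the promoter of wrt-9, a gene of the hedgehog-related warthog family, with 83.7 and 31.5. These are summits of the full lists, which include background. Among the strongest 1945 peaks, 1 site on X had a summit in replicate 6 and none in replicate 7.

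Sites were concentrated in the arms, taken as the outer 25% of a chromosome at each end. The arms held 1296 sites (88.3%), against 49.9% of windows. Within the arms 104 sites had a reproducible summit (8.02%; windows 0.345%) and in the centres 12 of 172 (6.98%; windows 0.439%), with overlapping intervals (6.60 to 9.64% and 3.66 to 11.9%). Centre sites were smaller, with a median of 4 copies against 7. At 3 to 9 copies, 13 of 816 arm sites (1.59%, interval 0.851 to 2.71%) and 6 of 148 centre sites (4.05%, interval 1.5 to 8.61%) had one. Leaving out replicate 6, which means taking the strongest 1945 peaks of replicate 7, the arm count was 48, and leaving out replicate 7 it was 126. The comparison of arms with centres depends on where the centre begins. With a narrower centre, the arms held 98.4% of sites and all 116 sites with a reproducible summit, so no site in that centre had one.

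Because so many sites are in the arms, they made up a sizeable part of the HAM-2 peaks there. Of 856 reproducible arm peaks, 105 were at a site (12.3%), and of 1089 centre peaks 12 were (1.10%). On the arms of chromosome V it was 29 of 86 (33.7%), on II 24 of 143 (16.8%), on III 23 of 142 (16.2%) and on I 20 of 139 (14.4%). Of the arm peaks in introns 23.4% were at a site (60 peaks), and of those in promoters 1.34% (3 of 224). Read from the sites, 60 of 796 arm intron sites had a reproducible summit (7.54%; windows 0.281%), and 38 of 363 arm sites outside genes and promoters (10.5%; windows 0.437%).

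By position in genes, introns held most sites. A site was given the class of its middle, taking promoters first (from 500 bp before to 100 bp after a protein-coding 5′ end), then exons, then introns, with the rest called outside. Introns held 893 sites (60.8%; 32.4% of windows), the rest 421 (28.7%; 29.9%), promoters 125 (8.51%; 11.3%) and exons 29 (1.98%; 26.4%). A reproducible summit lay at 64 intron sites (7.17%, interval 5.56 to 9.06%; windows 0.346%) and at 45 sites outside (10.7%, interval 7.90 to 14%; windows 0.512%). Promoters had 5 (4.0%, interval 1.31 to 9.09%; windows 0.959%) and exons 2 (6.90%, interval 0.846 to 22.8%; windows 0.0709%). The ratio to windows was thus lowest in promoters, where the share of windows was highest. From replicate 7 alone the intron count was 29, and from replicate 6 alone 78.

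Over all such sites the unit lay slightly more often on the host gene's own strand than on the other. Of 742 sites on 1 strand in introns of protein-coding genes with 1 orientation, 402 had TTAGGC on the gene's own strand (54.2%, interval 50.5 to 57.8%). Among those with a reproducible summit it was 26 of 52. The median distance to the nearest 5′ end of a protein-coding gene was 2154 bp for sites with a summit and 1718 bp for those without.

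Sites lay in 743 protein-coding genes (3.72% of 19973), and 157 of these held 2 or more. Of the 116 sites with a reproducible summit, 67 were in a protein-coding gene, 7 in a gene annotated as ncRNA, 3 in a pseudogene and 39 in no gene. They fell in 70 protein-coding genes, some of which overlap each other, and 1 gene held 2 of them. That gene is K02F6.7 on chromosome II, whose introns carry chrII:2525595-2526080 with 24 copies and chrII:2526937-2527381 with 23. The first had signals of 89.1 in replicate 6 and 23.6 in replicate 7, the second 83.6 and 29.2.

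The 7 protein-coding genes with 5 or more sites, named after their values were seen, had a reproducible summit at 3 of their 41 sites, counted per gene (7.32%, interval 1.54 to 19.9%), close to the share of all sites. In cox-6B, a gene for a cytochrome c oxidase subunit whose annotation spans 87197 bp, 1 of 7 sites had a reproducible summit. In lin-29, a zinc-finger gene of developmental timing, it was 1 of 6, and in unc-51 1 of 5. None was found at the 7 sites in clec-78, the 6 in Y75B7AL.2, or the 5 each in madd-2 and zfh-2. The lin-29 site had signals of 91.3 in replicate 6 and 27.8 in replicate 7. The site in cox-6B, which also lies in pho-9, was stronger in replicate 7 (60.3) than in replicate 6 (40.1).

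The strongest site, on chromosome II in a centre region, lies 433 bp from the 5′ end of R03H10.2. It had a pooled signal of 258, with 193 in replicate 6 and 67.8 in replicate 7. The second, chrII:3912515-3912621 in an intron of F53C3.1, had 249.8, with 151 and 74.5. It has 8 copies, while the strongest has 23 and the next, chrIII:12131741-12132376 over the ncRNA gene Y75B8A.50, has 43. That site had 215 pooled, 144 in replicate 6 and 88.5 in replicate 7, the highest value of replicate 7 among the 116 sites.

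Strong sites also lay away from promoters. The site chrIII:2647317-2647460, 10695 bp from the nearest 5′ end, that of the myotactin gene let-805, had signals of 156 in replicate 6 and 54.6 in replicate 7. The site chrIV:3455391-3455822, nearest to the chemoreceptor gene srz-23, had 132 and 67.8. At chrV:1848652-1848942, the site with the longer repeating unit, which overlaps a pseudogene and is nearest to T10B5.7, it was 142 and 48.8. All 3 are over 1000 bp from the 5′ end of a protein-coding gene.

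Some strong sites were inside genes of known roles. An array of 31 copies over an exon of the overlapping cuticle collagen genes col-46 and col-47 had 124 in replicate 6 and 68.1 in replicate 7. The site with 3 copies in srw-85, a chemoreceptor gene, had 120.3 and 74.8. In unc-51, which encodes a kinase of autophagy and axon growth, a site of 20 copies at chrV:19998215-19998552 had 128 and 54.0. In dys-1, the dystrophin gene, 20 copies had 114 and 44.2, and in the neuropeptide receptor gene npr-42, 23 copies at chrII:4277709-4278038 had 75.6 and 69.8. The remaining intron sites among the 25 strongest are in Y57A10C.9 (119 and 54.7), T03D3.5 (119 and 75.6) and lido-7 (88.7 and 83.7). Replicate 6 had the higher signal at all 25, but the scales of the lists differ.

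The others of the 25 lie outside introns, and the nearest 5′ end names them. They are near W03G1.5, tag-353, nhr-256 (a nuclear hormone receptor gene), Y22D7AR.2, R03H10.2 again, Y46G5A.36, cpn-2 (a calponin gene), rei-1, grif-1, zoo-1 and brp-1. The site near nhr-256 lies in the ncRNA gene ZK697.16, the one near grif-1 in the ncRNA gene Y51F10.13, and the one near Y22D7AR.2 in a pseudogene. Their replicate 6 signals ran from 87.7 at cpn-2 to 141 at tag-353, and their replicate 7 signals from 39.5 at the second R03H10.2 site to 79.1 at cpn-2. The cpn-2 site is 207 bp from the 5′ end and has 4 copies. A peak near a gene does not show that the gene responds to HAM-2, and no expression was measured here.

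Noncoding genes were near some sites. Genes annotated as ncRNA lay within 250 bp of 213 of the 1468 sites and of 32 of the 116 with a reproducible summit, while tRNA genes lay near 1 and 0. The share of genome windows near genes annotated as ncRNA is not given here. The counts therefore do not show whether sites lie near these genes unusually often. Larger sites were near such genes more often with or without a summit. At 3 to 9 copies it was 3 of 19 sites with a summit (15.8%, interval 3.38 to 39.6%) and 66 of 945 without (6.98%, interval 5.44 to 8.80%). At 20 or more copies it was 19 of 55 sites with a summit (34.5%) and 33 of 80 without (41.2%), and at 10 to 19 copies 10 of 42 (23.8%) and 82 of 327 (25.1%).

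The genes of telomere biology themselves were not among the targets. A gene was counted as a target where a reproducible summit lay between 1000 bp before and 200 bp after its 5′ end, which held for 4.60% of 19973 protein-coding genes. Of 12 genes in the list (the telomere binders pot-1, pot-2, pot-3, mrt-1, tebp-1, tebp-2, ceh-37 and hmg-5, the telomerase gene trt-1, and the checkpoint genes mrt-2, hpr-9 and hus-1), none was a target and none held a site. At that background share, a list of this size gives few targets in any case. The gene ham-2 itself had 2 target summits and no site inside, and reads from the transgene cannot be told apart from those of the endogenous locus.

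The telomere unit was not the only repeated word with HAM-2 summits. The same site rule was applied to all 6-base words, 1 of each reverse-complement pair, and 1058 words gave 100 or more sites. The median share of sites with a reproducible summit was 0.0445% and the 95th percentile 3.64%. TTAGGC was in place 14 with 7.90%, and the 5 other rotations of the unit, which share its sites, were in places 8, 9, 11, 12 and 13 with 8.19% to 9.29%. The 7 words in the first places were not rotations of the unit.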

How the data were processed

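HAM-2 ChIP-seq peaks from 2 biological replicates of 1 group were used. The 4 peak lists are 1 for each replicate, 1 for both pooled, and the reproducible set. The signal of each peak is the value deposited by the authors. The sources used here do not give its scaling, the aligner, the caller, any version or the read depth, so how depth limits precision is unknown. The build is ce11, per the labels, and all peaks ended inside the chromosomes of WBcel235.

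Whole copies of TTAGGC were counted on both strands of the RefSeq sequence, and genes came from Ensembl release 115. Summits are column 2 plus column 10 of each list. The background is the share of consecutive genome windows with a summit. No significance test was made, since there is 1 group. Shares have exact Clopper-Pearson intervals at 95%. The site finder and summit match were checked on simulated sequence. The rule and gene lists were chosen with earlier results of these data known.

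Genes named are hosts, or else nearest 5′ ends, of the 25 strongest sites, hosts of 2 or more sites with a summit, hosts of the 5 sites with most copies and no reproducible summit, ham-2, and telomere genes with a summit. Others were named after their values were seen. The tools were scipy 1.17.1, pandas 2.3.3, numpy 2.4.6 and matplotlib 3.10.9 under Python 3.11.15.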

Additional observations from a re-analysis of the deposited data

How the results depend on the processing

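Of 68 values under 17 alternatives, 50 stayed within 1.5 times the reported count, inside its interval, or, for the median signal, within the SD of the replicate medians. Those medians come from lists of different scale, so for the median signal this bound says little about stability. The number of sites followed the rule for copies, with 3020 at 2 or more copies and 3506 where 6 or more copies with up to 1 different base were asked for. The share with a reproducible summit then fell to 3.94% and 4.65%, and at 4 or more copies it was 10%. In the stronger 50% of the reproducible set, 28 sites (1.91%) had a summit, with a median signal of 175 against 125. When replicate 6 or replicate 7 was left out, the sites with a summit ranged from 55 to 143, the share from 3.75% to 9.74%, the median signal from 54.7 to 83.1 (lists of different scale), the arm sites from 48 to 126 and the intron sites from 29 to 78, with the lower value each time without replicate 6. The share in arms was 81.2% at 2 or more copies and 98.4% with a narrower centre, and the share in introns 54.9% with all genes. The causes were not tested. Restricting to sites whose 50-base words all occur once, an alternative chosen after seeing the data, left 91 of 1287 sites (7.07%). No paired analysis was possible because there is 1 group. Depth is unknown, both libraries are of 1 line, and the control was not analysed here, so these peak shares cannot be told apart from effects of the tag or the antibody.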

Other observations

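The 6-base words above the telomere unit in share of sites with a reproducible summit were CGGCTA (41 of 103 sites, 39.8%), GGCTAA (45 of 165, 27.3%), AAGCTT (21 of 150, 14%), AGAGAC (23 of 173, 13.3%), AGCCGA (41 of 341, 12.0%), ATTAGC (29 of 247, 11.7%) and AGGCTA (12 of 114, 10.5%). Most sites of each lay in other places. None of the 103 CGGCTA sites and none of the 173 AGAGAC sites overlapped a telomere-type site. For GGCTAA, 26 of 165 did, with 3 of its 45 summits. For AAGCTT and AGGCTA, most of the sites with a summit did overlap one. These were 20 of 21 for AAGCTT (66 of its 150 sites overlapped) and 7 of 12 for AGGCTA (32 of 114). The word CGCGCG, in place 10, had 23 of 252 sites with a summit (9.13%) and no overlap.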
